A study of Mus musculus with 48 samples.

Results

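Integrins, laminins and the metalloproteinases that cut matrix and cell surface proteins were described in kidneys of mice given vancomycin, a glycopeptide antibiotic that injures the kidney at high exposure. The members were all named genes whose symbol begins with Itga, Itgb, Lama, Lamb, Lamc, Adamts, or with Adam, Mmp or Timp followed by a number, without Itgam, which gave 55 of the 7859 named genes. They comprise 9 integrin alpha chains, 6 integrin beta chains, 4 genes named after integrins that are not receptor chains, 9 laminin chains, 11 matrix metalloproteinases, 10 ADAM proteases, 4 ADAMTS proteases and 2 metalloproteinase inhibitors. The platform annotation lists 108 such genes, and the other members of these families were not analysed here.

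Female BALB/c mice received vancomycin once a day by intraperitoneal (ip) or intravenous (iv) injection, 7 doses in all, and whole kidney RNA was taken on day 8. Each route had 4 groups of 6 mice, given saline or vancomycin at 50, 200 or 400 mg/kg, so the study holds 48 kidneys in 8 groups, each on its own single-colour Affymetrix array. Saline was the vehicle of both routes, and all mice were of the same strain and sex. In a whole organ, fewer cells of a type and less RNA per cell cannot be told apart.

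Gene names rest on a reconstruction. In the deposited table the order of the values is shifted against that of the probe set identifiers, and genes were named only in 3 stretches, each with 1 constant offset, that hold 11000 of 45101 probe sets (24.4%). Probe sets named for the same gene there had levels that correlated at 0.494 over 2927 pairs, against 0.142 over 3132 pairs with the identifiers as listed. Moving the offset by 1 position lowered this correlation in each stretch, to at most 0.158, 0.181 and 0.025 against 0.434, 0.546 and 0.605. No named result is more secure than this pairing of values with names. The pairing is least secure for the 9 members that lie within 250 positions of the end of a stretch, which are Adam7, Adam22, Itga9, Itgb3bp, Itgb4, Itgb7, Lamb2, Mmp3 and Mmp14.

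Integrins are cell surface receptors made of an alpha and a beta chain, which together decide what the receptor binds, and they tie the basement membrane or interstitial matrix to the actin cytoskeleton. Laminins are trimers of an alpha, a beta and a gamma chain and form the sheet of the basement membrane under each tubule and capillary of the kidney. Matrix metalloproteinases (Mmp) and ADAMTS proteases cleave matrix proteins, ADAM proteases mostly release the outer part of membrane proteins, and Timp proteins inhibit many of these enzymes.

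Start site sequences are given for 3 proteases because the same motif lies before the start of genes that differed in their response. RefSeq promoter windows (GRCm38.p6) were matched for 35 of the 55 members. The AP-1 motif TGANTCA, read on both strands, lay in 8 of the 41 windows of these members (19.5%), 1 window for each of 8 members, against 7.8% of all 32851 windows. These members were Adam19, Itga3, Itga9, Mmp1a, Mmp1b, Mmp3, Mmp13 and Mmp20. Mmp1a, Mmp1b, Mmp3, Mmp13 and Mmp20 lie together on chromosome 9, between positions 7272514 and 7674968. They make up most of the matches, so 19.5% is not a share over separate loci. Among them, Mmp1a, Mmp1b and Mmp20 did not pass the filter on low values given below. Of the 15 matched members that were higher at 400 mg/kg by both routes, 3 held it (Adam19, Itga3 and Mmp3). The TATA box letters TATAAA, on the gene's strand, lay in 8.3% of all windows and in those of Mmp1a, Mmp1b, Mmp3, Mmp13 and Mmp20. The 3 windows below are chr9:7445572-7445871 (plus strand) for Mmp3, chr11:46055734-46056033 (plus strand) for Adam19 and chr9:7272264-7272563 (plus strand) for Mmp13. Adam19 has 3 windows, and the one at the first start of the gene lacks the motif, so the window shown is that of a later start site. Itga3 has 2 windows, 1 of them with the motif. Capitals mark the AP-1 match, whose first base lies at -46, -131 and -35 from the start site, in that order.
Mmp3: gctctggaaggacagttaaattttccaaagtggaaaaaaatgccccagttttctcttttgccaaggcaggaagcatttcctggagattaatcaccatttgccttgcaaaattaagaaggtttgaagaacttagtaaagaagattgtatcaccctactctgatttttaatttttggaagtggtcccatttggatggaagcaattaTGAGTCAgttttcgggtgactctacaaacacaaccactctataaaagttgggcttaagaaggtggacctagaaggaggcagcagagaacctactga
Adam19: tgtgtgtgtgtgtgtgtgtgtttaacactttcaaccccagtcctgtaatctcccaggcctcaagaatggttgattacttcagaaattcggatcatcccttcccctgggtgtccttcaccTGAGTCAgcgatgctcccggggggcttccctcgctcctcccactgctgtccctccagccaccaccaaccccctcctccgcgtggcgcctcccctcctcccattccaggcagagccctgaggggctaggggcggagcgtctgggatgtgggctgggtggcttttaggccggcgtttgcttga
Mmp13: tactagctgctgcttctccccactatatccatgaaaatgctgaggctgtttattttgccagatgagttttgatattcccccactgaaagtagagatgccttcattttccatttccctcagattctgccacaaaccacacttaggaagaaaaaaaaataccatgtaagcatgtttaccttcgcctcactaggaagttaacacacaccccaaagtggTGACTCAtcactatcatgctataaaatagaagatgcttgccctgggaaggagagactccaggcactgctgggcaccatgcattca
Mmp3 and Adam19 were higher at 400 mg/kg by both routes, as given below. Mmp13 was lower by the ip route and not called by the iv route. The ip call of Mmp13 did not hold in every fit that left out 1 mouse, and its iv saline kidneys all lay under 3.47, the median of the whole table. Mmp3 passed the filter on low values only through arrays of the 400 mg/kg groups. The match is a description of these letters and shows nothing about binding of the factor.

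Levels are log2 intensities. A gene was tested where its probe set exceeded the median of the whole table (3.47) in at least 6 arrays, and a group mean under 3.47 cannot be separated from background, which makes any fold from such a level approximate. Background was not estimated for each probe set, so a mean above 3.47 does not by itself show expression. Itga2b, for example, stayed within 3.54 to 4.34 on all arrays. Of the 55 members, 37 passed, among 5748 genes tested. The other 18 stayed between 1.97 and 4.25 on all arrays, with means over all arrays of 2.09 to 3.06. They were the alpha chains Itga4 and Itgal, the beta chains Itgb3 and Itgb7, Itgb1bp2 and Itgbl1, the laminin chain Lamc3, the proteases Adam5, Adam7, Adam15, Adam23, Adam26a, Mmp1a, Mmp1b, Mmp16, Mmp19 and Mmp20, and the inhibitor Timp4. Adam8, Itga5, Itgb4, Lamb3 and Mmp3 passed only through arrays of the 400 mg/kg groups, so that they had to differ between doses to be tested. Their p-values at 400 mg/kg are therefore a description, and so are counts over the tested members.

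At 400 mg/kg most tested members were higher than in saline kidneys. By the ip route 25 of 37 rose, 4 fell and 8 were not called (limma with Benjamini-Hochberg adjustment over all 5748 genes, adjusted p under 0.05), where 36.3% of all tested genes rose and 25.1% fell. By the iv route 21 rose, 2 fell and 14 were not called, where 30.7% of all genes rose and 19.0% fell. The counts by family and by list at 400 mg/kg given below are to be read against these shares. The median log2 fold change of the tested members was 1.08 at ip 400 mg/kg, against 0.11 over all genes, and 0.66 at iv 400 mg/kg, against 0.09 over all genes. A change of more than 2-fold upward was called for 19 members by the ip route and 9 by the iv route, where 15.1% and 9.99% of all genes were. Both counts include Adam8, Itga5 and Lamb3, and the ip count also Mmp3, which passed the filter only through 400 mg/kg arrays. A call of more than 2-fold downward was made for 1 member by the ip route and 0 by the iv route, where 8.39% and 5.57% of all genes were.

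The calls of the 400 mg/kg groups were shared for most members. Integrin chains Itga3, Itga5, Itga6, Itgav, Itgb1 and Itgb4, laminin chains Lama2, Lama5, Lamb1, Lamb3 and Lamc1, and proteases Adam8, Adam12, Adam17, Adam19, Adamts5, Mmp3, Mmp11, Mmp14 and Mmp23 rose by both routes, 20 in all. The laminin chain Lama1 fell by both. Itga7, Lama4, Lamb2, Adamts10 and Timp2 rose by the ip route and were not called by the iv route, and Itgb1bp1 rose by the iv route and was not called by the ip route. Itga9, Itgb3bp and Mmp13 fell only in the ip comparison and Itga2b only in the iv comparison, and no difference between the routes was called for any of the genes that passed by 1 route. Adam22, Adamts8, Adamts15, Itgb5, Itgb6 and Mmp24 were called by neither route. In the ip comparison 19 members had all 6 treated kidneys above all 6 saline kidneys, against 24.1% of all genes, and 2 had all below (Adamts8 and Itgb3bp), against 17.2%. In the iv comparison 6 had all above (Adam8, Itga3, Itga5, Itgav, Lama5 and Mmp14), against 15.1% of all genes, and 0 had all below, against 6.87%. The 6 of 37 in the iv comparison are near the share of all genes.

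**Figure D1:**
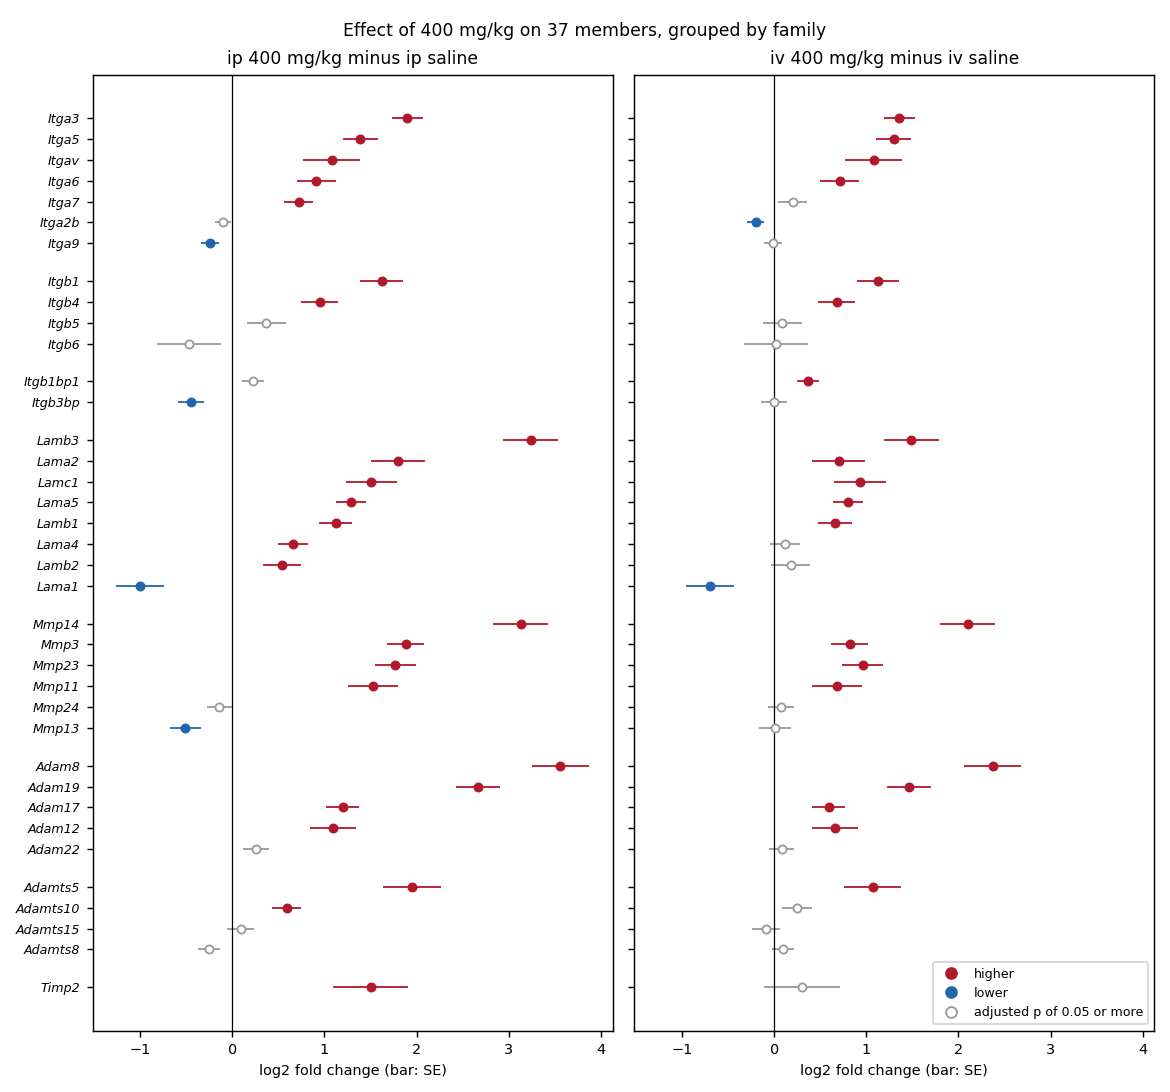
Log2 fold change (horizontal axis, bars are SE) of each of the 37 tested members at 400 mg/kg against saline of the same route, with ip on the left and iv on the right. Red points passed the test upward, blue points downward and open grey points did not pass; Adam8, Lamb3, Mmp14 and Adam19 lie in the right part of the ip panel.

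Among integrin alpha chains, 5 of 7 tested rose and 1 fell at ip 400 mg/kg, and 4 rose and 1 fell at iv 400 mg/kg. Itga3, which pairs with Itgb1 in a receptor for laminins of epithelial basement membranes, lay at 6.16 to 7.45 (median 6.99) in ip 400 mg/kg kidneys, against 4.82 to 5.35 (median 4.99) in ip saline kidneys. It lay at 6.15 to 7.03 (median 6.73) in iv 400 mg/kg kidneys, against 5.13 to 5.63 (median 5.28) in iv saline kidneys. The treated and saline groups therefore did not overlap in either route. The group means of Itga3 were 6.96 ± 0.47 and 5.06 ± 0.20 by the ip route (SD, n = 6 each), a log2 fold change of 1.90 ± 0.17 (SE, adjusted p = 4.7e-13), and 6.67 ± 0.31 and 5.32 ± 0.20 by the iv route, a change of 1.36 ± 0.17 (adjusted p = 7.8e-09).

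Itga5, the alpha chain of the fibronectin receptor, lay at 4.13 to 4.91 (median 4.68) in ip 400 mg/kg kidneys, against 3.08 to 3.43 (median 3.28) in ip saline kidneys. By the iv route it lay at 3.31 to 4.61 (median 3.91) at 400 mg/kg, against 2.41 to 3.03 (median 2.56) in saline. The groups did not overlap in either route. Both saline means of Itga5, 3.25 ± 0.15 for ip and 2.64 ± 0.23 for iv, lay under 3.47, so its changes of 1.39 ± 0.19 (ip mean at 400 mg/kg 4.64 ± 0.28, adjusted p = 2e-08) and 1.30 ± 0.19 (iv mean 3.94 ± 0.42, adjusted p = 1.6e-07) are approximate in size. As Itga5 passed the filter only through 400 mg/kg arrays, these p-values are a description.

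Itgav, which pairs with several beta chains in receptors for vitronectin, fibronectin and latent TGF-beta, averaged 6.37 ± 0.44 in ip 400 mg/kg kidneys and 5.29 ± 0.56 in ip saline kidneys. Its means were 5.13 ± 0.51 in iv 400 mg/kg kidneys and 4.05 ± 0.54 in iv saline kidneys. The change was 1.08 ± 0.31 in each route (adjusted p = 0.0028 for ip and 0.0037 for iv), and the treated kidneys lay above the saline kidneys without overlap in both. Itga6, the chain that pairs with Itgb1 or Itgb4 in laminin receptors, averaged 11.0 ± 0.51 in ip 400 mg/kg kidneys and 10.09 ± 0.38 in ip saline kidneys, a change of 0.91 ± 0.21 (adjusted p = 0.00025). Its iv means were 10.1 ± 0.15 at 400 mg/kg and 9.39 ± 0.54 in saline, a change of 0.71 ± 0.21 (adjusted p = 0.0051). The treated and saline ranges of Itga6 overlapped in both routes.

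The remaining alpha chains changed less. Itga7, a laminin receptor chain best known from muscle, rose at ip 400 mg/kg by 0.72 ± 0.16 (adjusted p = 0.00017), and its change of 0.20 ± 0.16 at iv 400 mg/kg did not pass (adjusted p = 0.33). Itga2b, the alpha chain of the platelet fibrinogen receptor, had a change of -0.20 ± 0.09 at iv 400 mg/kg (adjusted p = 0.049). That call held in only 4 of the 12 fits that left out 1 mouse, with an adjusted p of 0.24 without mouse 1 of the saline group, which at 4.34 was the highest of its group. Itga9, a receptor chain for tenascin C and VCAM-1, had a change of -0.24 ± 0.10 at ip 400 mg/kg (adjusted p = 0.033), and its mean of 3.33 there was under 3.47.

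The beta chains divided. Itgb1, the partner of most laminin and collagen binding alpha chains, lay at 9.53 to 10.25 (median 9.82) in ip 400 mg/kg kidneys, against 8.16 to 8.33 (median 8.21) in ip saline kidneys. In iv 400 mg/kg kidneys it lay at 8.04 to 9.26 (median 9.16), against 6.73 to 8.25 (median 7.73) in iv saline kidneys. Only the ip groups were free of overlap. The mean of Itgb1 was 9.85 ± 0.29 at ip 400 mg/kg and 8.22 ± 0.06 in ip saline, a change of 1.62 ± 0.23 (adjusted p = 3.5e-08), and 8.85 ± 0.57 at iv 400 mg/kg and 7.72 ± 0.54 in iv saline, a change of 1.13 ± 0.23 (adjusted p = 5.3e-05). A further probe set named Itgb1 had a mean level of 3.29, not told from background, and its group means differed by -0.34 (ip) and 0.02 (iv).

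Itgb4, which joins Itga6 in hemidesmosomes, rose by 0.95 ± 0.20 at ip 400 mg/kg (adjusted p = 6.3e-05) and by 0.68 ± 0.20 at iv 400 mg/kg (adjusted p = 0.0042) from saline means of 2.69 and 2.83, under 3.47. Its ranges overlapped, since at least 1 treated kidney in each route stayed at the saline level (lowest 2.68 at ip 400 mg/kg and 2.79 at iv 400 mg/kg). The p-values of Itgb4 are a description, because it passed the filter only through 400 mg/kg arrays. Itgb5 and Itgb6 are partners of Itgav, and the Itgav-Itgb6 pair of epithelial cells is known to activate latent TGF-beta. Itgb6 averaged 7.83 ± 0.50 in ip 400 mg/kg kidneys and 8.30 ± 0.70 in ip saline kidneys, a difference of -0.47 ± 0.35 (adjusted p = 0.24). Its iv means were 7.40 ± 0.30 at 400 mg/kg and 7.39 ± 1.04 in saline, a difference of 0.02 ± 0.35 (adjusted p = 0.98). Itgb5 differed by 0.37 ± 0.21 at ip 400 mg/kg (adjusted p = 0.13) and 0.09 ± 0.21 at iv 400 mg/kg (adjusted p = 0.77). The ip difference of Itgb5 passed in 3 of 7 alternative settings (lowest adjusted p 0.011) and also without the 4 iv arrays of highest median (0.011), and its second probe set differed by 0.56, so whether it changed by the ip route depends on the setting.

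Among the genes named after integrins, Itgb1bp1, whose product binds the inner tail of Itgb1, had a change of 0.37 ± 0.12 at iv 400 mg/kg (adjusted p = 0.010) and 0.22 ± 0.12 at ip 400 mg/kg (adjusted p = 0.11). Itgb3bp, whose product is a centromere protein, lay at 3.42 to 3.57 (median 3.48) in ip 400 mg/kg kidneys, against 3.81 to 4.15 (median 3.92) in ip saline kidneys. All 6 treated kidneys were below the saline kidneys, and the change was -0.45 ± 0.14 (adjusted p = 0.0052).

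**Figure D2:**
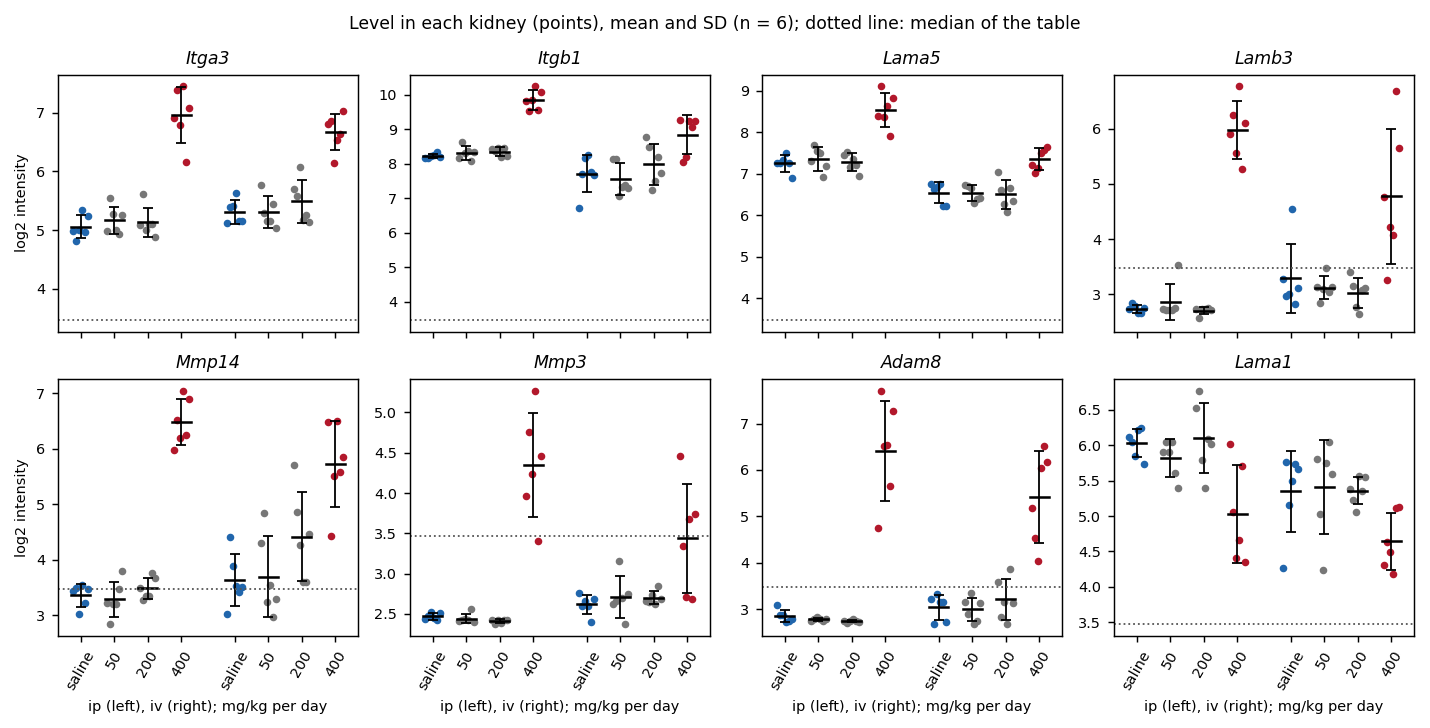
Level of 8 members in each kidney (points, log2 intensity), with group mean and SD (n = 6), by dose in mg/kg, ip on the left and iv on the right of each panel; the dotted line is the table median of 3.47. Lamb3, Mmp3 and Adam8 lie under the line in most kidneys below 400 mg/kg and spread over it at 400 mg/kg, while Lama1 is lower at 400 mg/kg.

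Of 8 laminin chains tested, 7 rose and 1 fell at ip 400 mg/kg, and 5 rose and 1 fell at iv 400 mg/kg. Lamb3, the beta chain of the laminin of stratified and injured epithelia, lay at 5.28 to 6.77 (median 6.00) in ip 400 mg/kg kidneys, against 2.66 to 2.84 (median 2.74) in ip saline kidneys. It lay at 3.26 to 6.68 (median 4.49) in iv 400 mg/kg kidneys, against 2.82 to 4.54 (median 3.06) in iv saline kidneys. The iv range at 400 mg/kg was the wider one, and only the ip groups were free of overlap. The means of Lamb3 were 5.98 ± 0.53 at ip 400 mg/kg and 2.74 ± 0.07 in ip saline, a change of 3.24 ± 0.30 (adjusted p = 1.5e-12), and 4.78 ± 1.23 at iv 400 mg/kg and 3.29 ± 0.63 in iv saline, a change of 1.49 ± 0.30 (adjusted p = 6.6e-05), both from saline levels not told from background. Since Lamb3 passed the filter only through 400 mg/kg arrays, these p-values are a description.

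The chains of the widespread laminins rose with smaller folds. Lama5, the alpha chain of glomerular and tubular basement membranes of the adult kidney, lay at 7.90 to 9.11 (median 8.51) in ip 400 mg/kg kidneys, against 6.89 to 7.51 (median 7.27) in ip saline kidneys. In iv 400 mg/kg kidneys it lay at 7.01 to 7.65 (median 7.35), against 6.21 to 6.76 (median 6.66) in iv saline kidneys. Neither route showed overlap. Lama5 averaged 8.54 ± 0.42 at ip 400 mg/kg and 7.25 ± 0.20 in ip saline, a change of 1.29 ± 0.16 (adjusted p = 2.5e-09), and 7.35 ± 0.27 at iv 400 mg/kg and 6.54 ± 0.25 in iv saline, a change of 0.80 ± 0.16 (adjusted p = 5e-05).

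Lamb1, the beta chain of most laminins, averaged 10.41 ± 0.23 at ip 400 mg/kg and 9.28 ± 0.17 in ip saline, a change of 1.12 ± 0.18 (adjusted p = 4.7e-07). Its iv means were 9.65 ± 0.41 at 400 mg/kg and 8.99 ± 0.47 in saline, a change of 0.66 ± 0.18 (adjusted p = 0.0018). Lamc1, the gamma chain of most laminins, averaged 7.45 ± 0.40 at ip 400 mg/kg and 5.94 ± 0.35 in ip saline, a change of 1.51 ± 0.28 (adjusted p = 7.4e-06), and 6.45 ± 0.47 at iv 400 mg/kg and 5.52 ± 0.63 in iv saline, a change of 0.93 ± 0.28 (adjusted p = 0.0048). The ip groups of Lamb1 and Lamc1 did not overlap and the iv groups did.

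Lama2, the alpha chain of muscle and nerve laminin, averaged 7.14 ± 0.52 at ip 400 mg/kg and 5.33 ± 0.44 in ip saline, a change of 1.80 ± 0.29 (adjusted p = 4.8e-07). At iv 400 mg/kg its mean was 5.43 ± 0.55, against 4.73 ± 0.74 in iv saline, a change of 0.70 ± 0.29 (adjusted p = 0.038). This iv call was lost in 6 of the 12 fits that left out 1 mouse, with an adjusted p of 0.14 without mouse 1 of the saline group. Lamb2, the beta chain of the mature glomerular basement membrane, averaged 7.27 ± 0.34 at ip 400 mg/kg and 6.72 ± 0.32 in ip saline, a change of 0.54 ± 0.21 (adjusted p = 0.025), which became 0.089 when each array was centred on its median and 0.086 without mouse 66 of the saline group. Its iv means of 6.59 ± 0.30 at 400 mg/kg and 6.41 ± 0.31 in saline differed by 0.18 ± 0.21 (adjusted p = 0.52). Lama4, an alpha chain of vessel walls, rose by 0.66 ± 0.16 at ip 400 mg/kg (adjusted p = 0.0003) and differed by 0.12 ± 0.16 at iv 400 mg/kg (adjusted p = 0.57).

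Lama1 was the laminin chain that fell. It is an alpha chain of early embryonic basement membranes that is kept in some tubule basement membranes of the kidney. Its level was 4.35 to 6.01 (median 4.86) in ip 400 mg/kg kidneys, against 5.73 to 6.24 (median 6.08) in ip saline kidneys, and 4.18 to 5.13 (median 4.57) in iv 400 mg/kg kidneys, against 4.27 to 5.76 (median 5.58) in iv saline kidneys. The ranges overlapped in both routes, and in each the median of the treated kidneys lay below that of the saline kidneys. The changes were -1.0 ± 0.26 (ip, adjusted p = 0.0011) and -0.70 ± 0.26 (iv, adjusted p = 0.025). The iv call held in 7 of the 12 fits that left out 1 mouse, with an adjusted p of 0.067 at most.

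Of 6 matrix metalloproteinases tested, 4 rose and 1 fell at ip 400 mg/kg, and 4 rose at iv 400 mg/kg. Mmp14, a membrane-bound enzyme that cleaves collagen and activates the gelatinase Mmp2, lay at 5.98 to 7.05 (median 6.39) in ip 400 mg/kg kidneys, against 3.01 to 3.54 (median 3.45) in ip saline kidneys. In iv 400 mg/kg kidneys it lay at 4.42 to 6.51 (median 5.72), against 3.02 to 4.40 (median 3.52) in iv saline kidneys. The groups did not overlap in either route, although the lowest iv 400 mg/kg kidney and the highest iv saline kidney nearly met. Mmp14 averaged 6.49 ± 0.42 at ip 400 mg/kg and 3.36 ± 0.20 in ip saline, a change of 3.13 ± 0.30 (adjusted p = 2.8e-12). Its iv means were 5.73 ± 0.77 at 400 mg/kg and 3.63 ± 0.47 in saline, a change of 2.10 ± 0.30 (adjusted p = 1.2e-07). The ip saline mean was under 3.47, so the size of the ip change is approximate.

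Mmp3 (stromelysin, an enzyme that degrades many matrix proteins and activates other Mmp enzymes) lay at 3.40 to 5.27 (median 4.35) in ip 400 mg/kg kidneys, against 2.43 to 2.53 (median 2.46) in ip saline kidneys. In iv 400 mg/kg kidneys it lay at 2.69 to 4.46 (median 3.51), against 2.40 to 2.76 (median 2.63) in iv saline kidneys. Some iv 400 mg/kg kidneys thus stayed in the saline range, while all ip 400 mg/kg kidneys lay above it. The means of Mmp3 were 4.35 ± 0.65 at ip 400 mg/kg and 2.47 ± 0.04 in ip saline, a change of 1.88 ± 0.20 (adjusted p = 3.1e-11), and 3.44 ± 0.68 at iv 400 mg/kg and 2.62 ± 0.12 in iv saline, a change of 0.82 ± 0.20 (adjusted p = 0.00057). Both saline means and the iv 400 mg/kg mean were under 3.47. Mmp3 passed the filter only through 400 mg/kg arrays, so its p-values are a description.

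Mmp23, a membrane-anchored member of the family, averaged 6.28 ± 0.40 at ip 400 mg/kg and 4.51 ± 0.10 in ip saline, a change of 1.77 ± 0.22 (adjusted p = 2.6e-09), and 5.70 ± 0.58 at iv 400 mg/kg and 4.74 ± 0.31 in iv saline, a change of 0.96 ± 0.22 (adjusted p = 0.00033). Mmp11 (stromelysin 3) rose by 1.53 ± 0.27 at ip 400 mg/kg (adjusted p = 4.3e-06) and by 0.68 ± 0.27 at iv 400 mg/kg (adjusted p = 0.035). The iv call of Mmp11 held in 6 of the 12 fits that left out 1 mouse, with an adjusted p of 0.11 without mouse 47 of the treated group. Mmp13, a collagenase, had means of 4.04 ± 0.45 at ip 400 mg/kg and 4.56 ± 0.39 in ip saline, a change of -0.51 ± 0.17 (adjusted p = 0.010, and 0.058 without mouse 66 of the saline group), and differed by 0.01 ± 0.17 at iv 400 mg/kg (adjusted p = 0.98). Mmp24, known from nerve cells, differed by -0.14 ± 0.14 (ip, adjusted p = 0.39) and 0.07 ± 0.14 (iv, adjusted p = 0.72).

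Among the ADAM proteases 4 of 5 tested rose by each route. Adam8, a protease of leukocytes and of cells under inflammatory stimulus, lay at 4.75 to 7.71 (median 6.52) in ip 400 mg/kg kidneys, against 2.73 to 3.09 (median 2.82) in ip saline kidneys. It lay at 4.03 to 6.51 (median 5.62) in iv 400 mg/kg kidneys, against 2.67 to 3.32 (median 3.15) in iv saline kidneys. No treated kidney reached down to the saline range in either route. The means of Adam8 were 6.40 ± 1.08 at ip 400 mg/kg and 2.85 ± 0.13 in ip saline, a change of 3.56 ± 0.31 (adjusted p = 1.7e-13), and 5.41 ± 0.99 at iv 400 mg/kg and 3.04 ± 0.27 in iv saline, a change of 2.37 ± 0.31 (adjusted p = 1.6e-08), approximate because both saline means were under 3.47. Adam8 passed the filter only through 400 mg/kg arrays, so these p-values are a description.

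Adam19, which sheds growth factors of the neuregulin family, lay at 5.94 to 7.37 (median 6.6) in ip 400 mg/kg kidneys, against 3.57 to 4.20 (median 4.03) in ip saline kidneys, and at 4.10 to 6.07 (median 5.47) in iv 400 mg/kg kidneys, against 3.35 to 4.14 (median 3.71) in iv saline kidneys. The ip groups were far apart and the iv groups just overlapped. Its means were 6.64 ± 0.47 at ip 400 mg/kg and 3.97 ± 0.25 in ip saline, a change of 2.67 ± 0.24 (adjusted p = 6.4e-13), and 5.2 ± 0.71 at iv 400 mg/kg and 3.74 ± 0.29 in iv saline, a change of 1.46 ± 0.24 (adjusted p = 2.4e-06).

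Adam17, the sheddase of TNF and of ligands of the EGF receptor, averaged 8.66 ± 0.24 at ip 400 mg/kg and 7.46 ± 0.16 in ip saline, a change of 1.20 ± 0.18 (adjusted p = 1.3e-07), and 7.25 ± 0.46 at iv 400 mg/kg and 6.67 ± 0.35 in iv saline, a change of 0.59 ± 0.18 (adjusted p = 0.0056). Adam12, a protease of mesenchymal cells, rose by 1.09 ± 0.25 at ip 400 mg/kg (adjusted p = 0.00021) and by 0.66 ± 0.25 at iv 400 mg/kg (adjusted p = 0.027, and 0.097 without mouse 48 of the treated group). Adam22, a protein of nerve cells without protease activity, differed by 0.26 ± 0.14 (ip, adjusted p = 0.11) and 0.08 ± 0.14 (iv, adjusted p = 0.66).

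Of 4 ADAMTS proteases, 2 rose at ip 400 mg/kg and 1 at iv 400 mg/kg, where 36.3% and 30.7% of all genes rose. Adamts5, an enzyme that cleaves aggrecan and versican, lay at 7.99 to 9.81 (median 8.72) in ip 400 mg/kg kidneys, against 5.83 to 7.34 (median 7.10) in ip saline kidneys, and at 6.58 to 8.4 (median 7.14) in iv 400 mg/kg kidneys, against 5.50 to 6.72 (median 6.58) in iv saline kidneys. The ip groups stood apart and the iv groups overlapped. Its means were 8.82 ± 0.74 at ip 400 mg/kg and 6.86 ± 0.56 in ip saline, a change of 1.95 ± 0.31 (adjusted p = 6.3e-07), and 7.37 ± 0.73 at iv 400 mg/kg and 6.30 ± 0.53 in iv saline, a change of 1.07 ± 0.31 (adjusted p = 0.0041). Adamts10, an enzyme tied to fibrillin microfibrils, rose at ip 400 mg/kg by 0.59 ± 0.16 (adjusted p = 0.0014, and 0.084 after quantile normalization) and differed by 0.25 ± 0.16 at iv 400 mg/kg (adjusted p = 0.21). Adamts15 differed by 0.09 ± 0.15 (ip, adjusted p = 0.64) and -0.09 ± 0.15 (iv, adjusted p = 0.66). Adamts8 was lower in all 6 ip 400 mg/kg kidneys, 3.25 to 3.67, than in the ip saline kidneys, 3.73 to 3.85, but its change of -0.25 ± 0.12 did not pass (adjusted p = 0.079). It passed in 4 of 7 alternative settings (lowest adjusted p 0.0063) and without the 4 iv arrays of highest median (0.002).

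The inhibitor Timp2, which blocks many Mmp enzymes and also carries the proenzyme of Mmp2 to Mmp14, lay at 3.05 to 4.98 (median 4.12) in ip 400 mg/kg kidneys, against 2.12 to 2.77 (median 2.54) in ip saline kidneys. In iv 400 mg/kg kidneys it lay at 2.40 to 4.25 (median 3.48), against 1.89 to 4.15 (median 3.14) in iv saline kidneys. The ip groups were apart, and the iv groups shared nearly the whole range. Timp2 averaged 4.03 ± 0.68 at ip 400 mg/kg and 2.52 ± 0.26 in ip saline, a change of 1.5 ± 0.41 (adjusted p = 0.0014), and 3.42 ± 0.74 at iv 400 mg/kg and 3.12 ± 0.79 in iv saline, a difference of 0.30 ± 0.41 (adjusted p = 0.58). Of these 4 means, 3 lie under 3.47, so the size of the change is approximate.

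For 7 tested members more than 1 probe set passed the filter on low values. Adam17, Itga6, Itgb5, Lama5, Lamb1 and Mmp23 gave the same direction on each of their probe sets, with differences between group means of 0.37 to 1.77 at ip 400 mg/kg and 0.09 to 1.41 at iv 400 mg/kg. For Adam17 the probe set used differed by 1.20 at ip 400 mg/kg and the others by 0.60 and 0.39, so its change over 2-fold depends on the probe set. At iv 400 mg/kg the probe set used differed by 0.59 and the others by 0.59 and 0.16. Itgb1 was the exception in direction described above.

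**Figure D3:**
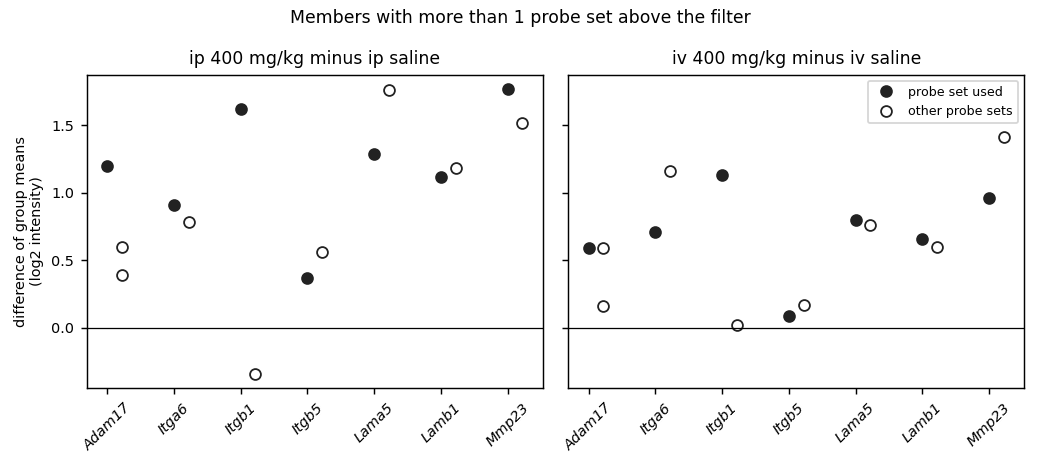
Difference of group means (log2 intensity) at 400 mg/kg against saline of the same route, ip on the left and iv on the right, for each probe set of the 7 members with more than 1. Filled points are the probe sets used and open points the others; the second Itgb1 probe set lies at -0.34 in the ip panel and 0.02 in the iv panel, far below the one used.

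Below 400 mg/kg no tested member passed the test. The counts were 0 of 37 at ip 50 mg/kg and 0 of 37 at ip 200 mg/kg, where limma called 0.087% of all genes at each dose, and 0 of 37 at iv 50 mg/kg and at iv 200 mg/kg, where it called 0.539% and 7.36%. At an unadjusted p under 0.05 there were 2 members at ip 50 mg/kg (Adam19 with 0.52 ± 0.24, Itgb6 with -0.76 ± 0.35), 0 at ip 200 mg/kg, 2 at iv 50 mg/kg (Itga2b with -0.18 ± 0.09, Itga6 with -0.51 ± 0.21) and 3 at iv 200 mg/kg. The 3 at iv 200 mg/kg were Mmp14, with 0.79 ± 0.30 (adjusted p = 0.11), Lamb1, with 0.41 ± 0.18 (adjusted p = 0.17), and Adam17, with 0.37 ± 0.18 (adjusted p = 0.22). As the share of all genes at that unadjusted threshold is not given here, these unadjusted counts are a description. The treated and saline kidneys overlapped for all 37 members at each of these 4 doses, where 0.244% (ip 50), 0.609% (ip 200), 0.557% (iv 50) and 1.98% (iv 200) of all genes had no overlap.

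Along the iv series the mean of Mmp14 was 3.63 in saline, 3.70 at 50, 4.41 at 200 and 5.73 at 400 mg/kg, and along the ip series 3.36 in saline, 3.28 at 50, 3.48 at 200 and 6.49 at 400 mg/kg. The ip means of Mmp14 in saline and at 50 mg/kg lay under 3.47. Its iv 200 mg/kg kidneys spread from 3.59 to 5.71 (median 4.37), with the highest inside the range of the iv 400 mg/kg kidneys. Mouse 25 had that highest value, and it had the highest value of its group for 15 of the 37 members. When arrays were weighted by their agreement with the fit, 3 members rose at iv 200 mg/kg (Adam17, Lamb1 and Adam22), and when mouse 28 was left out 1 did (Mmp14). For comparison, 8 of 11 tested markers of the injured tubule and 11 of 14 of macrophages and other myeloid cells rose at iv 200 mg/kg. Over all genes 349 of 5748 rose there.

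**Figure D4:**
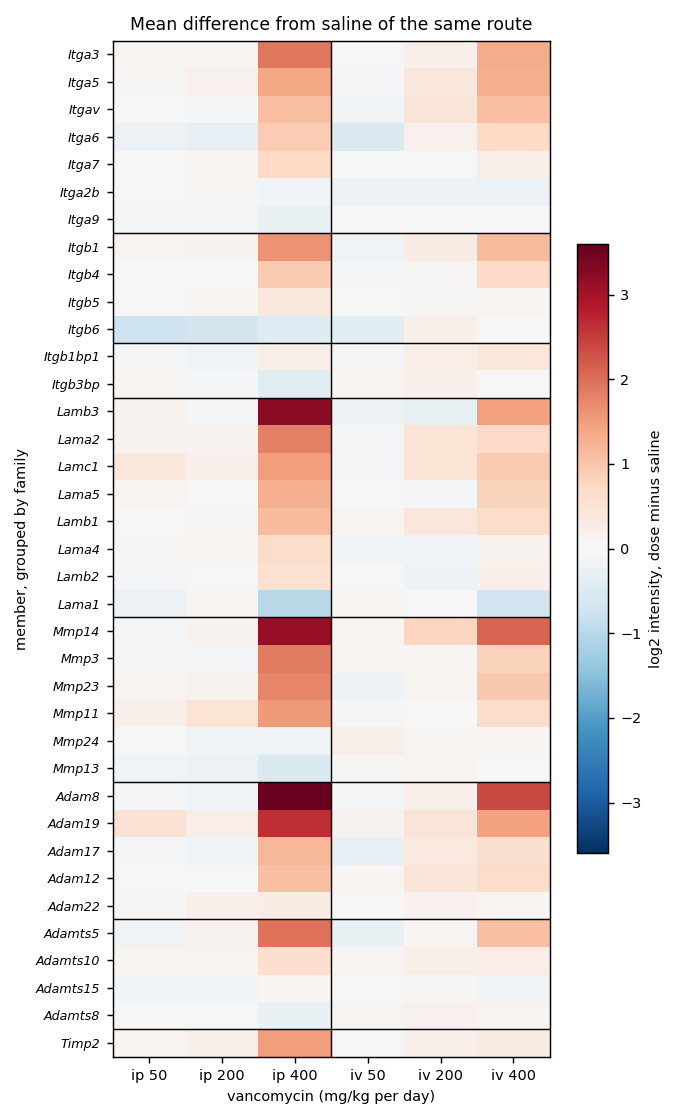
Mean difference from saline of the same route (colour, log2 intensity) for the 37 tested members, grouped by family, at ip and iv doses of 50, 200 and 400 mg/kg. Strong colour lies mostly in the 400 mg/kg columns; the iv 200 mg/kg column is faintly red for Mmp14 at 0.79, and Lama1 is blue in both 400 mg/kg columns.

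The 400 mg/kg effect was larger by the ip route for 3 members by the test of the difference itself, where 4.31% of all genes were called in either direction. Lamb3 and Mmp3 passed the filter only through 400 mg/kg arrays and all their saline means lie under 3.47, so their differences are taken from levels not told from background and are approximate. The ip effect minus the iv effect was 1.75 ± 0.43 for Lamb3 (adjusted p = 0.011), 1.06 ± 0.28 for Mmp3 (adjusted p = 0.020) and 1.21 ± 0.35 for Adam19 (adjusted p = 0.034). At an unadjusted p under 0.05 there were 16 members, of which 14 were positive and 2 negative (Itgb3bp and Mmp13), and the median over the 37 was 0.44, against 0.01 over all genes. The share of all genes at that unadjusted threshold is not given here, so the 16 are a description. Lamb3 was called in all 24 fits that left out 1 mouse, Mmp3 in 22 and Adam19 in 15, and other settings moved the count more. The number of members was 0 after quantile normalization, 0 with only the 4 groups compared in the fit, and 7 with array weights. It was 1 without mouse 106 of ip 400 mg/kg or mouse 45 of iv 400 mg/kg, 5 without mouse 48 of iv 400 mg/kg and 8 without mouse 107 of ip 400 mg/kg. For the effect of 200 mg/kg the difference between routes was called for 0 members by limma, with 1 at an unadjusted p under 0.05 (Itgb1bp1, -0.38 ± 0.17, adjusted p = 0.35), where 0.974% of all genes were called.

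Saline kidneys of the routes differed for many genes. In ip saline against iv saline kidneys 13 of the 37 members were higher and 2 lower, where 55.1% of all genes were higher and 2.57% lower, and the median log2 difference was 0.32 for the members and 0.41 over all genes. The array medians were 3.47 to 3.68 in the 24 ip arrays and 3.34 to 3.55 in the 24 iv arrays, and the 90th percentiles 9.07 to 9.23 and 8.28 to 8.75. No label names a batch, so route and array handling cannot be told apart. Centring each array on its median left 6 members higher and 4 lower, with a median of 0.25 over all genes, and quantile normalization left 4 higher and 5 lower, with a median of -0.04.

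The members farthest apart between the saline groups were Itga7 and Mmp13. Itga7 lay at 3.36 to 3.92 (median 3.54) in ip saline kidneys, against 5.07 to 5.32 (median 5.15) in iv saline kidneys, a difference of -1.58 ± 0.16 (adjusted p = 8.6e-11). Mmp13 lay at 4.27 to 5.25 (median 4.34) in ip saline kidneys, against 2.98 to 3.39 (median 3.08) in iv saline kidneys, a difference of 1.44 ± 0.17 (adjusted p = 4.2e-09). Neither pair of groups overlapped, and both calls held under the 7 alternative settings of the fit that were tried and in each of the 12 fits that left out 1 mouse. All iv saline kidneys of Mmp13 lay under 3.47, so the size of its difference is approximate. Itga7 lay at 4.96 to 5.38 in all iv kidneys below 400 mg/kg. Whether this narrow range is the background of its probe set was not tested. Some members that failed the filter on low values also differed between the saline groups in the fit without it, such as Mmp16 (-0.41) and Itgb3 (0.18). Itgav was also higher in ip saline kidneys, by 1.24 ± 0.31 (adjusted p = 0.00087), as much as its rise at 400 mg/kg within either route.

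Other genes of the same pathways moved in both directions at 400 mg/kg. Of 18 tested genes for integrin ligands and basement membrane proteins, 14 rose and 2 fell at ip 400 mg/kg and 13 rose and 1 fell at iv 400 mg/kg, with medians of 1.77 and 1.33. The largest changes were in fibrinogen alpha chain (Fga, 4.08 ip and 4.24 iv), the leukocyte adhesion molecule Icam1 (4.31 and 3.40) and fibronectin (Fn1, 3.98 and 3.35), and all 3 encode ligands of integrins. Of 16 tested genes for proteins that link integrins to actin or signal from them, 11 rose and 1 fell (ip) and 9 rose and 1 fell (iv), with medians of 0.73 and 0.61. Rac2, a GTPase of blood cells (3.83 and 3.03), Fermt3, the integrin activator of blood cells (3.97 and 2.66), and the actin crosslinker Flna (2.79 and 2.44) led that list.

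Of 15 tested genes of the plasminogen system and other matrix proteases, 8 rose and 5 fell (ip) and 8 rose and 4 fell (iv), with medians of 0.49 and 0.63. Over all genes 36.3% rose and 25.1% fell (ip) and 30.7% rose and 19.0% fell (iv). Mep1b, a meprin protease of the proximal tubule brush border, had the largest change, -4.42 at ip 400 mg/kg and -3.37 at iv 400 mg/kg. The protease inhibitor A2m rose by 3.10 and 2.05, and Bmp1, which cleaves the ends of procollagens, by 2.17 and 1.72. At iv 200 mg/kg 7, 4 and 3 genes of these lists rose and 0 fell, where 349 of all 5748 genes rose and 74 fell.

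Markers of other cell types moved in the same kidneys. Of 14 tested markers of macrophages and other myeloid cells, 14 rose at ip 400 mg/kg and 13 at iv 400 mg/kg, and their mean level per kidney was 8.93 to 9.89 at ip 400 mg/kg, against 4.92 to 5.51 in ip saline, and 7.38 to 8.79 at iv 400 mg/kg, against 4.87 to 5.17 in iv saline. Of 8 tested markers of fibroblasts and myofibroblasts, 8 and 6 rose, with mean levels of 7.51 to 8.45 at ip 400 mg/kg, against 4.92 to 5.36 in ip saline, and 6.61 to 7.78 at iv 400 mg/kg, against 4.81 to 5.54 in iv saline. All 11 tested markers of injured tubules rose by both routes. All 7 tested markers of the proximal tubule fell by both, with mean levels of 8.4 to 10.63 at ip 400 mg/kg, against 12.26 to 12.50 in ip saline, and 9.12 to 11.23 at iv 400 mg/kg, against 11.57 to 12.22 in iv saline. Their high level in saline kidneys is that of kidney, the labelled tissue.

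Of 7 tested endothelial markers 1 fell (ip) and 2 fell (iv), where 25.1% and 19.0% of all genes fell. Of 6 tested podocyte markers 2 rose and 1 fell (ip) and 1 rose (iv), where 36.3% and 30.7% of all genes rose. The single tested neutrophil marker Csf3r rose at ip 400 mg/kg by 1.27, and the single tested lymphocyte marker Cd8a had a change of -0.39 there. None of the 6 platelet markers was tested. The Affymetrix values hold no zeros, and markers that stayed under the filter are not told from background. Whether the integrin, laminin and protease changes lay in the cells that these markers stand for was not tested.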

How the data were processed

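Whole kidney RNA of 48 mice was hybridised as biotin-labelled cRNA, 1 mouse per single-colour array, per the labels' protocols. The deposited values are intensities on a linear scale for 45101 probe sets, made by the authors with GCRMA per the submitters' processing notes; its version is not given in the sources used here. Intensities ran from 1.78 to 63594, and log2 was taken without an offset. Precision is limited by the number of arrays.

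In the platform annotation 34958 probe sets carry 1 symbol, 932 carry several and were left unnamed, and 9211 carry none. The offsets that pair values with names came with the choice of members, were found after the values were seen, and were checked here on same-gene pairs. A name was given to 10198 probe sets, and the row with the highest mean stood for each gene.

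All 8 groups were fitted together (R 4.3.3, limma 3.58.1, eBayes with trend, two-sided). For each comparison p was adjusted by Benjamini-Hochberg across 5748 genes, with a threshold of 0.05. The script was tested on simulated data. Mice have their own numbers, so no pairing was used. Full statistics went to the 12 members with the largest changes among those called in both 400 mg/kg comparisons, to members called in the comparison of routes, and to a fixed list of well-known members. Other pathway genes come from 3 lists, with the 3 largest changes named. Members, lists and offsets were chosen with earlier results of these data known. Alternatives were the filter, centring, quantile normalization, array weights, no trend, the mean over probe sets, a fit of the compared groups alone, each mouse left out, and, chosen after seeing the array medians, a fit without the 4 iv arrays of highest median.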

Additional observations from a re-analysis of the deposited data

Results flagged for a closer look

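Values far from the rest of their group were sought in the 160 groups of 6 kidneys of the 20 members with full statistics. A kidney stood apart in 17 of them, where chance gives about 1 in 20 if the values are normally distributed. Some of these were small gaps under 3.47. Examples are Mmp3 in mouse 71 of ip 50 mg/kg (2.56, nearest other 2.44) and Lamb3 in mouse 86 of ip 200 mg/kg (2.57, nearest other 2.71). The 17 are therefore a description. All values are log2 intensities, and none was explained.

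Of these, 4 came from mouse 1 of iv saline, which was low for Itgb1 (6.73), Itgb6 (5.39), Lamb2 (5.82) and Lamc1 (4.30). Mouse 9 of iv 50 mg/kg was high for Adam19 (4.76) and Mmp23 (5.43) and low for Lamc1 (3.82). Mouse 27 of iv 200 mg/kg was low for Adamts5 (5.36) and Lamb2 (5.03), and mouse 44 of iv 400 mg/kg was low for Mmp23 (4.57). The arrays of these 4 mice had the highest median of their groups, 3.47, 3.50, 3.55 and 3.52, against at most 3.37, 3.40, 3.38 and 3.43 in the others of the group.

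Mouse 4 of iv saline was high for Lamb3 (4.54). Among ip kidneys, mouse 63 of saline was low for Mmp23 (4.32), mouse 68 of 50 mg/kg was high for Lamb1 (9.71), mouse 71 of 50 mg/kg was high for Mmp3 (2.56) and mouse 72 of 50 mg/kg was high for Lamb3 (3.53). Mouse 86 of ip 200 mg/kg was high for Itga3 (5.61) and low for Lamb3 (2.57).

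The effect of 400 mg/kg differed between the routes in the main fit, tested as the ip effect minus the iv effect on the log2 scale, for Lamb3 (1.75), Adam19 (1.21) and Mmp3 (1.06). No member was called after quantile normalization or with only the groups compared in the fit. Lamb3 and Mmp3 start from levels not told from background, and route and array handling cannot be told apart.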

How the results depend on the processing

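The number of members called, up and down together, at 400 mg/kg moved little with 1 mouse left out. By the ip route it was 29 and became 27 to 30, and by the iv route it was 23 and became 19 to 22. Without the filter on low values the ip count grew by members that had failed it. Mmp19 rose by 0.56 (adjusted p = 0.00043). Adam7, Adam26a, Itga4, Itgal, Itgb1bp2, Itgb3, Mmp1a, Mmp1b and Mmp20 had called changes of -0.06 to -0.16, at levels not told from background. No member that had failed the filter was called at iv 400 mg/kg. Of the 29 ip calls 26 held in each of the 12 fits that left out a mouse (Itga9, Lamb2 and Mmp13 did not), and of the 23 iv calls 18 did (Adam12, Itga2b, Lama1, Lama2 and Mmp11 did not). Without the 4 iv arrays of highest median 0 of the ip calls and 2 of the iv calls were lost, Itga2b (adjusted p = 0.21) and Lama2 (0.083). The other settings that lost the iv call of Lama2 were no filter (0.054), centring (0.071), array weights (0.14) and the 2 groups alone (0.11). No result among these reversed its direction.

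The ip saline against iv saline count was 15 and became 9 with quantile normalization and 23 with array weights, and 14 to 18 with 1 mouse left out. Over all genes it fell to 2138 with centring and 1344 with quantile normalization, against 3316, and the share of higher calls was 89.4% and 46.6%, against 95.5%. The count for the ip effect minus the iv effect of 400 mg/kg was 3 and became 0 with quantile normalization, 7 with array weights, 0 with only the groups compared, and 1 to 8 with 1 mouse left out. Its share of higher calls over all genes was 48.4% with quantile normalization, against 68.1%. At iv 200 mg/kg the count was 0 and became 3 with array weights and 0 to 1 with 1 mouse left out, and the share of higher calls over all genes was 66.6% with quantile normalization, against 82.5%. For the route difference at 200 mg/kg that share was 43.5% and 48.5%, against 32.1%, with 0 members called in each fit with 1 mouse left out. The causes were not tested. No paired analysis was possible because no mouse number is shared between groups. Depth has no count here, and members near the table median of 3.47 have changes of uncertain size.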
